A study of Mus musculus with 12 samples.

Results

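Control CD8αα intraepithelial lymphocytes (IELs) of the mouse gut were compared with control thymic precursors of these cells (IELp), using 6 of the 12 RNA sequencing libraries of the series, 3 from each population. The libraries were chosen by their labels alone. All 6 came from C57BL/6 mice with the genotype Cd4 Cre-, Lrf fl/fl. These mice carried floxed alleles of Lrf, the gene Zbtb7a for a zinc finger transcription factor, but no recombinase, and so both populations share the floxed alleles. The precursors were thymocytes sorted as TCRβ+ CD4- CD8α- CD5hi CD122+ H-2Kb+ CD44- PD-1hi. The IELs were sorted as CD45+ TCRβ+ CD4- CD8α+ CD8β- cells. The series asks what LRF does in this lineage, and the control pair shows how expression differs between stage and tissue with the gene intact. The labels used here give no age or sex and do not say whether replicates were separate mice, so p-values measure the spread between these samples, which may be technical.

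CD8αα IELs are T cells that lie between the epithelial cells of the gut lining. Many arise from thymocytes that meet strong self-ligands, leave the CD4 and CD8 double-positive stage without either coreceptor, and take up CD8αα in the gut. As a background to what follows, residence there is known to involve an integrin that binds E-cadherin, interleukin-15, the aryl hydrocarbon receptor and a high threshold for T cell receptor activation. Stage, tissue and sort differ together between the populations and cannot be told apart. The samples of each population were also registered in separate number ranges. Any batch in preparation or sequencing therefore cannot be told apart from these differences. In bulk RNA, fewer cells with a transcript and less of it in each cell cannot be told apart either.

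Each library was made from 40000 sorted cells and held between 13578608 and 18407626 counts assigned to genes. Between 58.8% and 61.0% of reads were outside these gene counts. Levels are in CPM, counts of a gene scaled to the total gene counts of its library, given for libraries 1, 2 and 3 in turn or as mean ± SD (n = 3). Zbtb7a was at 111 ± 8.91 against 75.4 ± 6.27 CPM (log2 change 0.79 ± 0.092 SE, adjusted p = 2.21e-05 by edgeR), so the floxed gene was transcribed in both populations. All 12 T cell markers were detected, with the CD3 chain gene Cd3e at 2229, 2050.4 and 2294 CPM in the IEL libraries and 927, 1014 and 1083 CPM in the IELp libraries. By edgeR 5 of the 12 were higher in IELs, Cd3e among them, and 6 were lower, with a median log2 fold change of -0.05. Among genes of the proteins used for sorting, Cd8a followed the gates of both sorts, at 2508 ± 158 against 18.7 ± 1.36 CPM. Pdcd1, which encodes PD-1, was at 6.69 ± 0.731 against 1507 ± 70.3 CPM, and only the precursors were gated on PD-1. Il2rb, which encodes CD122, was likewise gated only in the precursors and did not pass the test. Differences in gated genes are set wholly or in part by the sort and are not treated as results.

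Markers of other cell types differed between the populations. The 22 gut epithelial markers summed to 526, 582 and 826 CPM in the IEL libraries and to between 67.1 and 75.3 CPM in the IELp libraries. The largest single value in IELs was that of Cdh1, which encodes E-cadherin, at 369, 421 and 400.3 CPM in the IEL libraries and 1.02, 0.176 and 0.221 CPM in the IELp libraries. Without Cdh1 and Epcam the remaining 20 markers summed to 35.3, 33.3 and 236 CPM in the IEL libraries and to at most 8.46 CPM in IELp. The third IEL library thus stood apart, although the goblet cell gene Muc2 was at 0 there and in the other two. Of 15 myeloid markers 3 passed the filter on low counts and 2 of these were higher beyond 2-fold, with a summed level of all 15 of 56.2 to 61.4 CPM in IELs and 20.2 to 26.6 CPM in IELp. Itgam, the αM integrin chain, was at 29.3 ± 0.929 against 0.631 ± 0.688 CPM and Csf1r did not pass the test (edgeR adjusted p = 0.0569), while Cd14, Adgre1, S100a8, S100a9, Marco, C1qa and C1qb had no counts in IELs. All 4 tested B cell and plasma cell markers were higher, 3 of them beyond 2-fold, with a summed level of the 12 markers of 610.2 to 832 CPM in IELs and 442 to 453 CPM in IELp. The plasma cell product Igha was at 159, 147 and 172 CPM in the IEL libraries and 7.64, 8.17 and 8.98 CPM in the IELp libraries, Cd79b at 44.5 ± 14.5 against 19.8 ± 1.45 CPM and Ighm, whose call was lost under total-count scaling, at 483 ± 95 against 417 ± 5.15 CPM, while Ms4a1, Pax5, Ebf1 and Mzb1 had no counts in IELs. Of 10 tested markers of double-positive thymocytes 8 were lower in IELs, among them Sh3bgrl2 at 3.82 ± 1.74 against 73.3 ± 7.51 CPM, and Ccr9 was higher. All 5 tested markers of mast cells and innate lymphoid cells, which include Kit and Il7r, were lower, with sums of 297 to 319.9 CPM in IELs and 686 to 812 CPM in IELp. Kit made up most of both sums, and its levels are given below with the cytokine receptors. These sums are therefore no measure of mast cells or innate lymphoid cells. Red cell and stromal markers summed to 49.2 to 51.3 CPM in IELs and 105.5 to 144 CPM in IELp, with 2 of 4 tested higher and 1 lower. The part of these cells in the differences below was not tested.

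Of 14878 genes tested with edgeR's quasi-likelihood test (Benjamini-Hochberg adjusted p below 0.05), 4742 (31.9%) were higher in IELs and 4897 (32.9%) were lower, 64.8% in all. The 3 IEL and 3 IELp values did not overlap for 70.9% of genes, and most genes named below were chosen from these, so that their lack of overlap is no result. When the test asked for a change beyond 2-fold, 1512 genes (10.2%) were higher and 1799 (12.1%) lower. The median log2 fold change over all tested genes was -0.01, with quartiles at -0.63 and 0.54. Scaling by total gene counts alone moved that median by -0.23 and gave 3381 higher and 6435 lower genes, so the share of calls that were higher fell from 49.2% to 34.44%. In what follows, a gene called higher or lower passed the edgeR test. Counts of list members are read against 31.9% and 32.9%. List counts under total-count scaling are read instead against 3381 higher and 6435 lower of the 14878 genes. That scaling moved the balance over all genes too, so such a turn in a list is not particular to it.

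**Figure D1:**
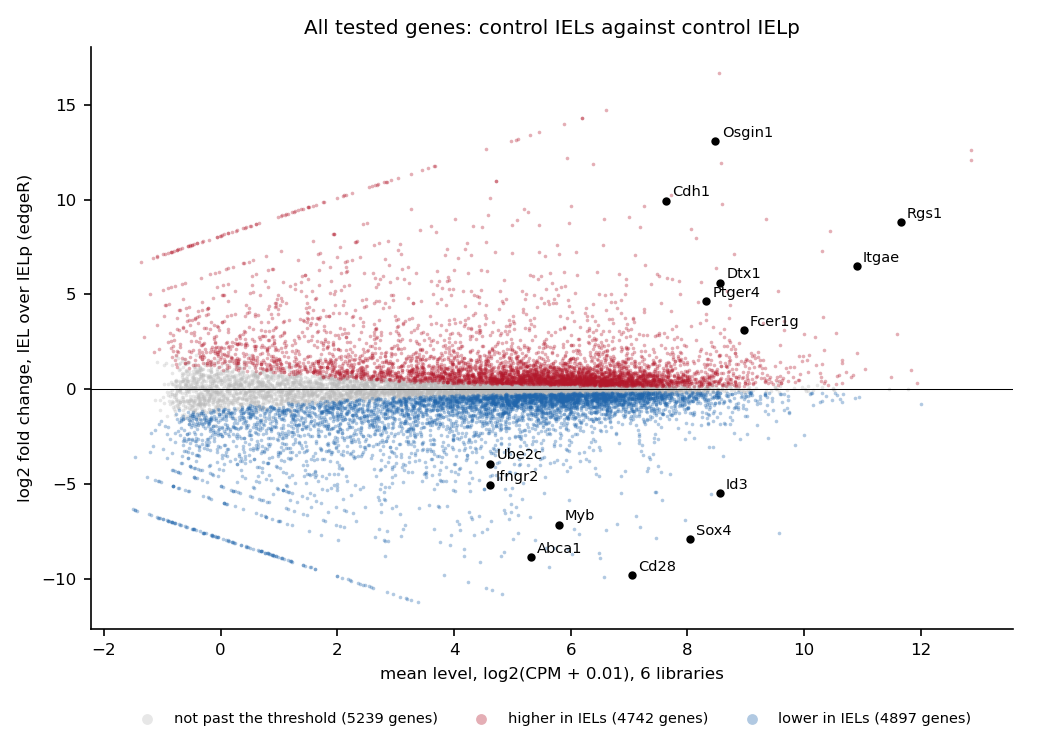
Each point is 1 of the 14878 tested genes, with its mean level over the 6 libraries on the x axis (log2 CPM) and its log2 fold change of IELs over IELp on the y axis. The 4742 higher genes are red and the 4897 lower genes blue. Straight rows of points at the left edges are genes with no counts in one population, whose fitted change depends on the fit's prior and is not a measured size.

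Some genes had counts in only one population. With at least 10 CPM in IELs, 26 genes had no count in any IELp library, and 14 had no count in IELs with at least 10 CPM in IELp. Folds of such genes are lower bounds, taken against 3 counts in the silent group as a whole. Glp1r, the receptor for the gut hormone GLP-1, was at 150.5, 167 and 124 CPM in the IEL libraries and 0 in each IELp library, at least 2216-fold higher. Spp1, which encodes the secreted adhesion protein osteopontin, was at 80.7, 74.6 and 81.4 CPM in the IEL libraries and 0 in each IELp library, at least 1189.5-fold higher. Rasgrf1, a nucleotide exchange factor for Ras, was at least 1001-fold higher and the tight junction gene Igsf5 at least 708-fold higher. All 3 IEL libraries carried each of these transcripts. In the other direction the neuronal tubulin gene Tubb3 was at 0 CPM in each IEL library and 17.9, 14.5 and 13.9 CPM in the IELp libraries, at least 258-fold lower. Dntt, the template-free DNA polymerase of receptor gene rearrangement, was at least 205-fold lower, at 12.2 ± 3.37 CPM in IELp. Tnni1, a troponin gene of slow muscle, was at 0.184, 0.0643 and 0.217 CPM in the IEL libraries and 186, 185 and 196 CPM in the IELp libraries, a 968-fold difference (edgeR adjusted p = 1.12e-11). Osgin1, which encodes a growth inhibitor of the oxidative stress response, was at 726, 688 and 726 CPM in the IEL libraries and 0, 0.235 and 0 CPM in the IELp libraries (edgeR adjusted p = 1.07e-11).

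Integrin chains differed in both directions. Of 27 integrin chains 19 were tested, and 10 of 19 tested members were higher and 8 lower, with a median log2 fold change of 0.31. Under total-count scaling 8 were higher and 8 lower. Itga1, the α chain of the collagen receptor α1β1, was at 751, 830.4 and 663 CPM in the IEL libraries and 0 in each IELp library, at least 11282-fold higher. Itgae, whose product pairs with β7 to bind E-cadherin, was at 3774, 3857 and 3695 CPM in the IEL libraries and 53.2, 46 and 47.4 CPM in the IELp libraries (log2 change 6.50 ± 0.078 SE, adjusted p = 1.52e-12 by edgeR). Its partner Itgb7 was at 1242, 1222 and 1128 CPM in the IEL libraries and 636, 609.5 and 615 CPM in the IELp libraries (log2 change 1.18 ± 0.059 SE, adjusted p = 2.67e-08 by edgeR). Per transcript length, in TPM (transcript units scaled for gene length), Itgae stood at 2583 against 34.4 TPM and Itgb7 at 1355 against 721 TPM. The β7 gene was therefore well above its αE partner in precursors, while αE was above β7 in IELs. Itga4, the other α chain that pairs with β7, was lower, at 55.2, 55.3 and 24.8 CPM in the IEL libraries and 199, 193 and 180.5 CPM in the IELp libraries (log2 fold change -1.86), with the lowest value in the third IEL library.

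Chains of the leukocyte β2 family also differed in both directions. Itgb2, the shared β2 chain, was at 776, 787 and 835 CPM in the IEL libraries and 785, 743 and 742 CPM in the IELp libraries and differed little (log2 fold change 0.31). Its α partner Itgal, of the ICAM-binding integrin LFA-1, was at 60.8, 69.7 and 61.7 CPM in the IEL libraries and 646, 624 and 605 CPM in the IELp libraries, 8.32-fold lower in IELs (log2 change -3.06 ± 0.076 SE, adjusted p = 1.52e-10 by edgeR). The partners Itgad and Itgax were higher instead. Itgad, the αD chain, was at 329.5, 357 and 367 CPM in the IEL libraries and 9.08, 5.35 and 3.68 CPM in the IELp libraries (log2 change 6.09 ± 0.21 SE, adjusted p = 1.46e-09 by edgeR). Itgax, the αX chain also known as CD11c, was at 342, 343 and 229 CPM in the IEL libraries and 0.614, 0.588 and 0.0736 CPM in the IELp libraries (log2 change 9.63 ± 0.30 SE, adjusted p = 6.39e-10 by edgeR). Itgb3 was lower at 13.8 ± 1.96 against 153 ± 5.29 CPM, and Itgb1, the most widely shared β chain, was lower at 65.3 ± 14.2 against 308 ± 7.58 CPM whereas its partner Itga1 was higher. Itgb8, whose product activates latent TGF-β, had 1 count in the IEL libraries together against 37.6 ± 2.16 CPM in IELp, a ratio of 1898 with a 95% counting interval of 340.3 to 75020.0.

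Chemokine receptors went in both directions, and 5 of 14 tested members were higher and 7 lower. Ccr9, which answers the CCL25 of the small bowel, was at 265, 263 and 211 CPM in the IEL libraries and 21.3, 21.9 and 20.3 CPM in the IELp libraries (log2 change 3.77 ± 0.11 SE, adjusted p = 3.92e-10 by edgeR). Cxcr3, a receptor for interferon-induced chemokines, was at 70.5, 76 and 94.9 CPM in the IEL libraries and 1.36, 1.06 and 2.21 CPM in the IELp libraries (log2 change 5.96 ± 0.21 SE, adjusted p = 2.07e-09 by edgeR). Cxcr6, whose ligand is CXCL16, was higher at 329 ± 27.1 against 98.9 ± 12.3 CPM. The lower members included receptors known for homing to lymphoid organs or skin. Ccr7, which guides cells to lymph nodes, was at 0.184, 0 and 0.0543 CPM in the IEL libraries and 16.3, 15.6 and 19.9 CPM in the IELp libraries (log2 change -7.40 ± 0.40 SE, adjusted p = 4.69e-08 by edgeR). Cxcr4, the receptor for CXCL12, was at 0.430, 0.579 and 1.20 CPM in the IEL libraries and 20.3, 21.6 and 24.6 CPM in the IELp libraries (log2 change -4.64 ± 0.28 SE, adjusted p = 1.09e-07 by edgeR). Ccr10 was lower at 0.0724 ± 0.125 against 35.8 ± 7.03 CPM, and Ccr4, the receptor for CCL17 and CCL22, had no IEL counts and was at least 170.1-fold lower.

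Receptors for lipids and small molecules were mostly higher. 17 of 28 tested members were higher and 9 lower, with a median log2 fold change of 1.22, and 13 of them were higher beyond 2-fold. Ptger4, a prostaglandin E2 receptor that raises cyclic AMP, was at 633, 673 and 534 CPM in the IEL libraries and 27.3, 26.5 and 31.9 CPM in the IELp libraries (log2 change 4.66 ± 0.11 SE, adjusted p = 1.38e-10 by edgeR). The related Ptger3, which lowers cyclic AMP, was at 0, 0 and 0.109 CPM in the IEL libraries and 11.6, 12.6 and 13 CPM in the IELp libraries, a ratio of 311 with a 95% counting interval of 85.7 to 2573. Sphingosine phosphate receptors also went in opposite directions, with S1pr3 at 145, 149.9 and 145 CPM in the IEL libraries and 0 in each IELp library, at least 2214-fold higher, and S1pr1, the receptor for exit from thymus and lymph node, at 2.64, 2.38 and 1.79 CPM in the IEL libraries and 286, 285 and 258 CPM in the IELp libraries (log2 change -6.70 ± 0.13 SE, adjusted p = 2.14e-11 by edgeR). S1pr4 was lower at 9.83 ± 0.159 against 42.8 ± 1.39 CPM. Gpr34, a receptor for lysophosphatidylserine, was higher at 224 ± 9.13 against 3.85 ± 1.12 CPM, as were Gpr18 at 453 ± 39.8 against 16.7 ± 1.33 CPM and Gpr55 at 247 ± 28.4 against 24.7 ± 2.29 CPM. Gpr15, a homing receptor for the large intestine, was lower at 9.92 ± 5.78 against 48.8 ± 2.72 CPM.

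**Figure D2:**
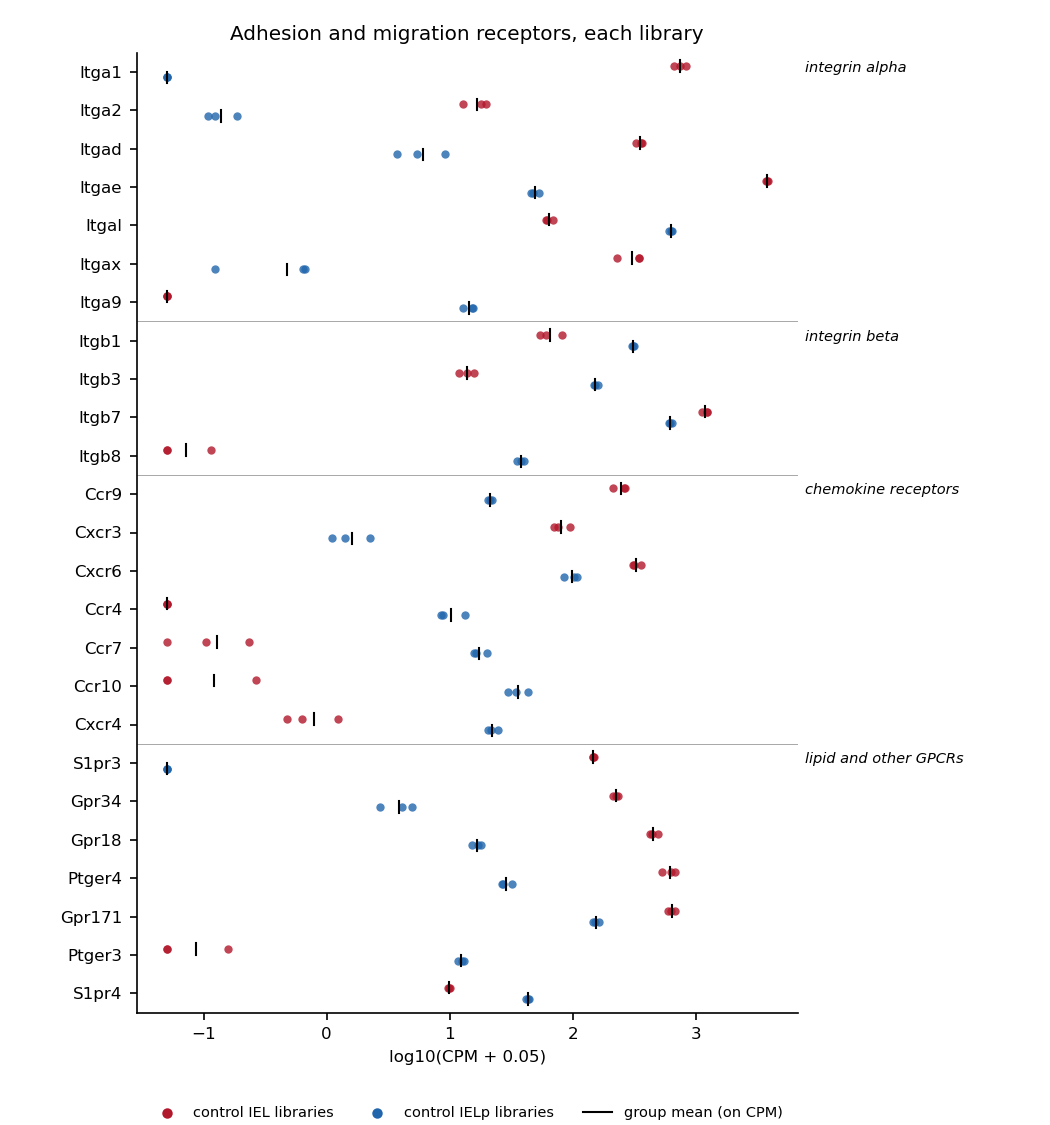
Each red point is 1 control IEL library and each blue point 1 control IELp library, on an axis of log10(CPM + 0.05), for integrin chains, chemokine receptors and lipid or other G protein-coupled receptors. Black bars mark group means. Itgae lies near 3775 CPM in IELs and 48.9 CPM in IELp, and Itgal shows the reverse order at 64.1 and 625 CPM.

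Several hormone and neuropeptide receptor genes differed by large amounts. Over the list of nuclear and hormone receptors 9 of 28 tested members were higher and 9 lower, near the share over all genes. Vipr2, a receptor for vasoactive intestinal peptide, was at 60.2, 64.9 and 64.4 CPM in the IEL libraries and 0 in each IELp library, at least 953-fold higher. Adrb1, the β1 adrenergic receptor, was at 82.3, 69.4 and 67 CPM in the IEL libraries and 0, 0.118 and 0.221 CPM in the IELp libraries (log2 change 9.49 ± 0.28 SE, adjusted p = 4.49e-10 by edgeR). Ramp1, which makes a receptor for the neuropeptide CGRP together with Calcrl, was at 0, 0 and 0.326 CPM in the IEL libraries and 99.3, 95 and 102 CPM in the IELp libraries (log2 change -9.38 ± 0.32 SE, adjusted p = 1.45e-09 by edgeR). Calcrl itself was lower by less, at 10.3 ± 2.42 against 21.6 ± 1.98 CPM. The glucocorticoid receptor gene Nr3c1 was higher at 209.6 ± 16.8 against 89.5 ± 2.63 CPM, and the retinoid receptors Rara (17.5 ± 1.95 against 59.8 ± 1.96 CPM) and Rxra (3.00 ± 1.40 against 13.6 ± 2.97 CPM) were lower.

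Transcripts of the Fc receptor type signalling chains Fcer1g and Tyrobp were higher, while those of Cd247 and the CD3 chains differed in both directions. Of the signalling list 28 of 50 tested members were higher and 15 lower (median log2 fold change 0.57). The products of Fcer1g, Tyrobp, Cd247 and the CD3 genes carry immunoreceptor tyrosine-based activation motifs (ITAMs), which bind the kinases ZAP-70 and Syk. Fcer1g, the common γ chain of Fc receptors, was at 850.5, 811 and 975 CPM in the IEL libraries and 101, 123 and 138 CPM in the IELp libraries (log2 change 3.09 ± 0.12 SE, adjusted p = 3.03e-09 by edgeR). Tyrobp, the adaptor DAP12 of activating NK receptors, was at 339.9, 315 and 418 CPM in the IEL libraries and 5.66, 7.35 and 7.07 CPM in the IELp libraries (log2 change 5.96 ± 0.14 SE, adjusted p = 1.14e-10 by edgeR). Cd247, the ζ chain that completes the T cell receptor complex, was lower at 129, 125 and 115 CPM in the IEL libraries and 306, 308 and 315 CPM in the IELp libraries (log2 change -1.10 ± 0.067 SE, adjusted p = 1.23e-07 by edgeR). Compared per length, Fcer1g was at 3147 against 444 TPM, Tyrobp at 1676 against 32.3 TPM and Cd247 at 72.2 against 187 TPM. Fcer1g and Tyrobp were thus both above Cd247 in IELs, whereas in precursors Fcer1g was above it and Tyrobp below. Hcst, which encodes DAP10, an adaptor without an ITAM, was higher at 54.8 ± 5.02 against 13.7 ± 2.38 CPM.

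CD3 chains did not move together. Cd3g (log2 change 1.55 ± 0.064 SE, adjusted p = 6.05e-09 by edgeR) and Cd3e (log2 change 1.35 ± 0.07 SE, adjusted p = 3.67e-08 by edgeR) were higher, at 2283, 2201 and 2388 CPM in the IEL libraries and 851, 956 and 955 CPM in the IELp libraries for Cd3g, and Cd3d was lower at 374 ± 20.4 against 627 ± 51.5 CPM. The kinase genes Lck (2061 ± 226 against 1301 ± 49.9 CPM) and Zap70 (506 ± 37.5 against 321 ± 12.9 CPM) were both higher, and Syk fell below the filter with a mean of 0.0785 against 0.369 TPM. Txk, a Tec family kinase, was at 449, 437 and 534 CPM in the IEL libraries and 100.1, 102 and 80.1 CPM in the IELp libraries (log2 change 2.56 ± 0.11 SE, adjusted p = 6.97e-09 by edgeR). Plcg2, the phospholipase better known from B cells and NK cells, was at 709, 754 and 639 CPM in the IEL libraries and 97.2, 89 and 92.1 CPM in the IELp libraries (log2 change 3.15 ± 0.08 SE, adjusted p = 1.75e-10 by edgeR). Further members of the signalling list were found on both sides. Ubash3a, a phosphatase-like inhibitor of T cell receptor signalling, was at 3.87, 2.64 and 3.69 CPM in the IEL libraries and 59.7, 65.9 and 60.6 CPM in the IELp libraries (log2 change -3.95 ± 0.15 SE, adjusted p = 2.71e-09 by edgeR). Rasgrp2, which activates Rap1 and through it integrins, was at 8.85, 11.4 and 8.47 CPM in the IEL libraries and 140.5, 145 and 146 CPM in the IELp libraries (log2 change -3.68 ± 0.12 SE, adjusted p = 8.29e-10 by edgeR). Dgka, a diacylglycerol kinase, was lower at 129 ± 0.564 against 523 ± 48.5 CPM, and the adaptor Dok1 was higher at 119 ± 6.97 against 22.3 ± 1.92 CPM.

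Constant regions of the γ chain were higher although both sorts required TCRβ. Tcrg-C2 was at 1408, 1387 and 1467 CPM in the IEL libraries and 181, 197 and 191 CPM in the IELp libraries (log2 change 3.13 ± 0.062 SE, adjusted p = 3.37e-11 by edgeR), Tcrg-C4 at 655 ± 76.3 against 99.9 ± 17.8 CPM and Tcrg-C1 at 315 ± 24.8 against 51.8 ± 3.60 CPM. Trdc, the δ constant region, was lower and near the bottom of the range, at 6.76, 6.76 and 12.4 CPM in the IEL libraries and 15.9, 20.4 and 26.3 CPM in the IELp libraries (log2 change -1.03 ± 0.26 SE, adjusted p = 0.00458 by edgeR). The γ constant genes are near-identical copies, and how the authors' counting split reads among them is uncertain. Trac, the α constant region, was at 1414 ± 67.7 against 1220.2 ± 23.7 CPM.

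Of the costimulatory and SLAM receptors 7 of 22 tested members were higher and 14 lower (median -1.14), and 11 were lower beyond 2-fold. Cd28, the main costimulatory receptor of naive T cells, was at 0, 0.708 and 0.0543 CPM in the IEL libraries and 255, 246 and 291 CPM in the IELp libraries (log2 change -9.83 ± 0.32 SE, adjusted p = 9.63e-10 by edgeR). Cd81, a tetraspanin that partners CD4, was at 0, 0 and 1.63 CPM in the IEL libraries and 139.9, 129.8 and 153 CPM in the IELp libraries (log2 change -7.65 ± 0.47 SE, adjusted p = 1.29e-07 by edgeR). Cd6, a scavenger-type receptor that binds ALCAM, was at 4.67, 4.38 and 10.9 CPM in the IEL libraries and 347, 351 and 333 CPM in the IELp libraries (log2 change -5.44 ± 0.25 SE, adjusted p = 1.33e-08 by edgeR). Cd2 was lower at 25.1 ± 6.09 against 315 ± 22.5 CPM and Slamf6 at 14.6 ± 1.07 against 304 ± 13.6 CPM. The adaptor Sh2d1a, or SAP, was lower at 6.33 ± 0.635 against 37.3 ± 3.73 CPM while its relative Sh2d1b1, or EAT-2, was higher at 51.5 ± 5.71 against 3.19 ± 0.216 CPM. Slamf7, a receptor that signals through EAT-2, was at 178, 173 and 167 CPM in the IEL libraries and 2.80, 2.59 and 3.09 CPM in the IELp libraries (log2 change 6.17 ± 0.11 SE, adjusted p = 1.19e-11 by edgeR), and Cd226, which binds nectin-type ligands, was higher at 33.4 ± 6.87 against 3.13 ± 0.527 CPM.

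Receptors listed as inhibitory were nearly all higher, and 16 of 18 tested members were higher and 2 lower (median 2.29), 13 of them higher beyond 2-fold. Pdcd1 was kept out of the list because the precursors were sorted for it. Cd244, a SLAM family receptor for CD48, was at 818, 815 and 741 CPM in the IEL libraries and 24.2, 26.2 and 25.5 CPM in the IELp libraries (log2 change 5.20 ± 0.079 SE, adjusted p = 7.10e-12 by edgeR). Lag3, which binds MHC class II, was at 88.1, 72.9 and 71.7 CPM in the IEL libraries and 16.4, 21 and 18.7 CPM in the IELp libraries (log2 change 2.28 ± 0.12 SE, adjusted p = 5.24e-08 by edgeR). Ctla4, which competes with CD28 for its ligands, was higher at 43 ± 13.1 against 3.67 ± 1.57 CPM, Cd101 at 201 ± 2.68 against 31.2 ± 4.79 CPM, Tigit at 55.9 ± 9.12 against 34.5 ± 4.61 CPM and the nectin-like receptor Cd96 at 1419.6 ± 21.4 against 503 ± 10.6 CPM. Relatives of the CD200 receptor were also far higher, with Cd200r4 at 413, 377 and 393 CPM in the IEL libraries and 7.71, 8.70 and 7.51 CPM in the IELp libraries (log2 change 5.85 ± 0.09 SE, adjusted p = 7.10e-12 by edgeR) and Cd200r2, outside the list, at 762 ± 119 against 0.226 ± 0.221 CPM. Both are known as activating relatives, so Cd200r4 is counted in the list by family and not by function. The whole list was drawn by family, so its counts do not show that each member inhibits. The leukocyte immunoglobulin-like receptor Lilrb4a was at 47.7 ± 9.44 against 0.0784 ± 0.136 CPM. Btla, which binds HVEM, was the exception in the T cell set, at 0.492, 1.22 and 0.272 CPM in the IEL libraries and 31.9, 32.9 and 30.5 CPM in the IELp libraries (log2 change -5.38 ± 0.30 SE, adjusted p = 6.58e-08 by edgeR). Pilra was also lower at 2.63 ± 0.772 against 14.3 ± 2.49 CPM.

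**Figure D3:**
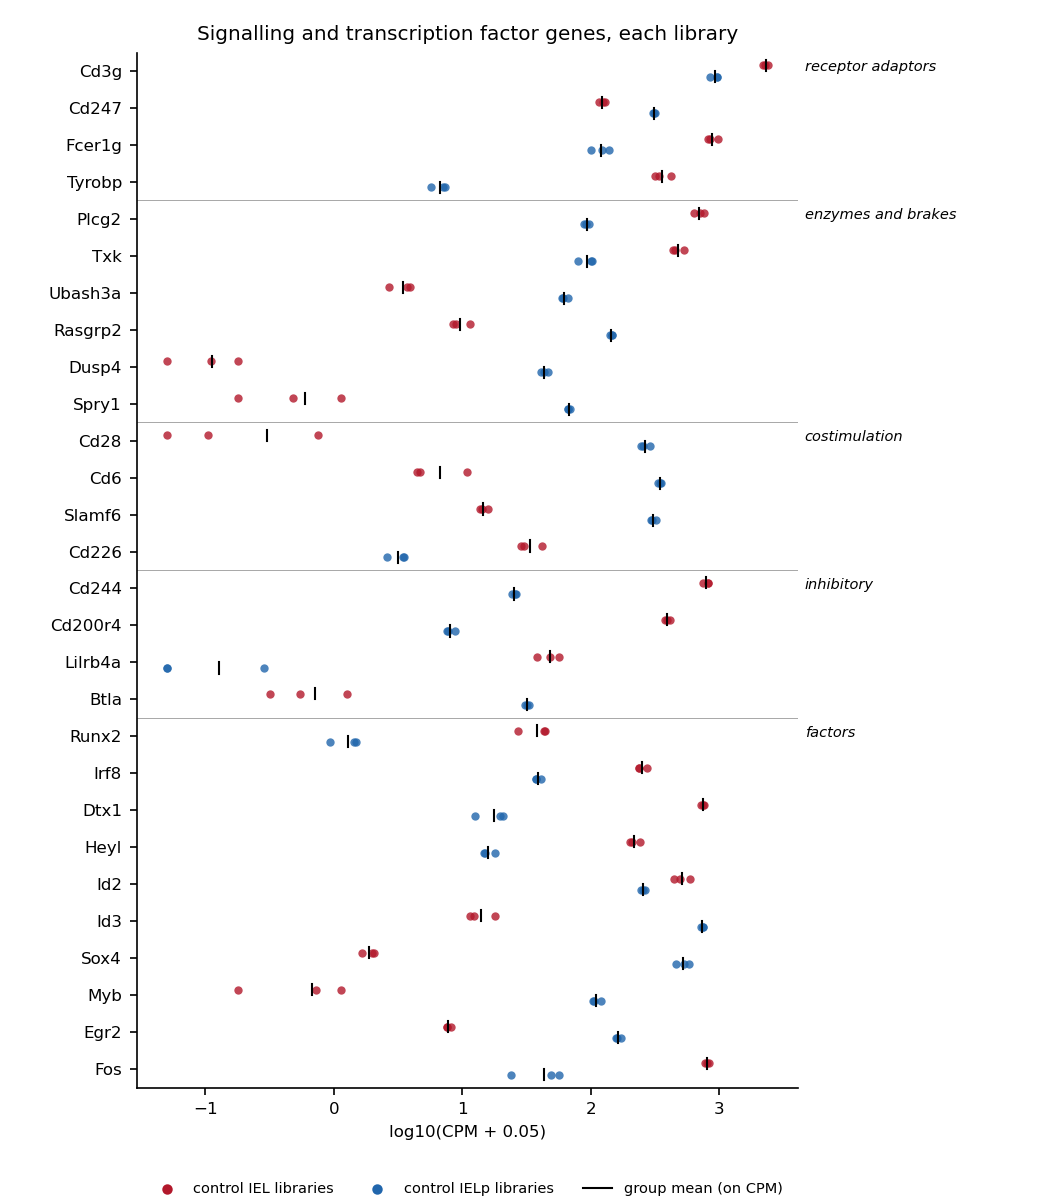
Points are single libraries (red control IEL, blue control IELp) on an axis of log10(CPM + 0.05), and black bars are group means. Fcer1g and Tyrobp lie to the right in IELs and Cd247 to the left. Cd28, Dusp4, Spry1, Sox4 and Myb lie below 3 CPM in every IEL library. Cd200r4 is drawn with the inhibitory receptors by family and not by function.

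Cytokine receptors differed in both directions, and the chains of the interferon-γ receptor went opposite ways. Over the list 9 of 25 tested members were higher and 12 lower. Ifngr1, the ligand-binding chain of the interferon-γ receptor, was at 920.0, 924 and 878 CPM in the IEL libraries and 259.6, 269 and 309 CPM in the IELp libraries (log2 change 1.93 ± 0.075 SE, adjusted p = 3.88e-09 by edgeR). Ifngr2, its signalling partner, was at 0.492, 1.03 and 2.01 CPM in the IEL libraries and 43, 49.3 and 50.7 CPM in the IELp libraries (log2 change -5.07 ± 0.28 SE, adjusted p = 6.62e-08 by edgeR). Per length Ifngr1 was at 999 against 316 TPM and Ifngr2 at 0.974 against 40.7 TPM. The chains of the IL-12 receptor were both higher, Il12rb2 at 141 ± 13.5 against 17.5 ± 1.36 CPM and Il12rb1 at 130.2 ± 6.09 against 27.2 ± 5.80 CPM. Il15ra, which presents IL-15, was at 40.3, 39.4 and 35.6 CPM in the IEL libraries and 2.93, 3.29 and 1.99 CPM in the IELp libraries (log2 change 4.02 ± 0.17 SE, adjusted p = 7.56e-09 by edgeR). Il2rb, the β chain shared by the IL-2 and IL-15 receptors and a sort marker of the precursors as CD122, was at 2550.0 ± 68.4 against 3033 ± 50.4 CPM and did not pass the test (edgeR adjusted p = 0.734). Il2rg, the common γ chain, did not pass it either, at 237 ± 31.9 against 285 ± 42.5 CPM. Il7r was lower at 6.85 ± 2.05 against 63.3 ± 6.29 CPM, and Kit, the stem cell factor receptor, was lower at 287, 295 and 311 CPM in the IEL libraries and 743, 733 and 601 CPM in the IELp libraries (log2 change -0.99 ± 0.083 SE, adjusted p = 1.79e-06 by edgeR).

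Among JAK, STAT and SOCS genes 15 of 23 tested members were higher and 5 lower. The kinase Jak3, which binds the common γ chain, was at 720.2, 700.3 and 638 CPM in the IEL libraries and 228, 205 and 224 CPM in the IELp libraries (log2 change 1.88 ± 0.072 SE, adjusted p = 3.18e-09 by edgeR). Stat4, which acts downstream of IL-12, was higher at 169.9 ± 3.50 against 45.1 ± 4.34 CPM and Stat3 at 748 ± 24.3 against 485 ± 12.1 CPM, and Stat5a, which acts downstream of IL-2, IL-7 and IL-15, was lower at 77.9 ± 5.19 against 159 ± 4.75 CPM. The feedback inhibitors Socs2 (14.7 ± 0.643 against 1.38 ± 0.910 CPM), Socs3 (41.9 ± 4.55 against 10.3 ± 0.599 CPM) and Cish (115 ± 21.8 against 52.9 ± 5.45 CPM) were higher, and Socs1 (37.1 ± 4.19 against 65.4 ± 10.9 CPM) and Socs5 (16.9 ± 0.938 against 53.8 ± 4.54 CPM) were lower.

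Secreted products and TNF family genes were tested as ligands and receptors. Of the chemokines and cytokines 11 of 18 tested members were higher and 4 lower. Ccl5, a chemokine for effector T cells, was at 2977, 3113 and 2241 CPM in the IEL libraries and 11.7, 11.6 and 6.26 CPM in the IELp libraries (log2 change 8.35 ± 0.22 SE, adjusted p = 2.35e-10 by edgeR). Ccl4 was at 138, 123 and 112 CPM in the IEL libraries and 0.205, 0.647 and 0.0736 CPM in the IELp libraries (log2 change 8.75 ± 0.26 SE, adjusted p = 4.49e-10 by edgeR), and Ifng was low in IELs and lower still in precursors, at 12.3 ± 0.605 against 0.233 ± 0.144 CPM. Xcl1, a chemokine for cross-presenting dendritic cells, was at 43.2 ± 10.4 against 43.8 ± 2.81 CPM and did not pass the test (edgeR adjusted p = 0.239). Of TNF ligands 4 of 12 tested members were higher and 6 lower. Tnfsf13b, the B cell survival factor BAFF, was at 25.1, 27.3 and 23.7 CPM in the IEL libraries and 0 in each IELp library, at least 383-fold higher. Tnfsf10, the death ligand TRAIL, was higher at 237 ± 49.4 against 107 ± 7.70 CPM. Ltb, which drives lymphoid tissue formation, was lower at 96 ± 3.51 against 307 ± 23.5 CPM, and Cd40lg and Lta were lower at 1.65 ± 1.13 against 14.9 ± 1.16 CPM and 0.765 ± 0.201 against 11.2 ± 1.52 CPM. Of TNF receptors 3 of 16 tested members were higher and 8 lower, with Tnfrsf1a higher at 107 ± 8.98 against 25 ± 0.974 CPM, Cd27 lower at 98.2 ± 6.70 against 347 ± 10.6 CPM and Tnfrsf9, or 4-1BB, lower at 150.3, 139 and 159 CPM in the IEL libraries and 517, 521 and 452 CPM in the IELp libraries (log2 change -1.50 ± 0.078 SE, adjusted p = 3.44e-08 by edgeR).

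T-lineage transcription factors were more often lower, and 8 of 35 tested members were higher and 18 lower (median -0.31). Sox4, a progenitor factor, was at 1.60, 1.93 and 2.01 CPM in the IEL libraries and 534, 459 and 579 CPM in the IELp libraries (log2 change -7.91 ± 0.14 SE, adjusted p = 1.21e-11 by edgeR). Myb, another progenitor factor, was at 0.676, 0.129 and 1.09 CPM in the IEL libraries and 105, 119.5 and 107 CPM in the IELp libraries (log2 change -7.15 ± 0.26 SE, adjusted p = 2.48e-09 by edgeR). Satb1, a chromatin organizer of thymocytes, was lower at 14.9 ± 0.849 against 399 ± 8.41 CPM, Klf2, which drives S1pr1, at 5.51 ± 0.589 against 374 ± 25.7 CPM, and Lef1 at 12.1 ± 1.73 against 668 ± 10.4 CPM. Its relative Tcf7 was lower by less, at 185, 172 and 184 CPM in the IEL libraries and 1672, 1679 and 1584 CPM in the IELp libraries (log2 change -2.96 ± 0.061 SE, adjusted p = 4.34e-11 by edgeR). Higher members included Runx2 at 43.6, 43 and 26.9 CPM in the IEL libraries and 1.43, 0.882 and 1.40 CPM in the IELp libraries (log2 change 5.17 ± 0.26 SE, adjusted p = 3.01e-08 by edgeR) and Runx3, the factor of the CD8 lineage, at 308 ± 28.7 against 122 ± 2.55 CPM. Ikzf3, or Aiolos, was higher at 679 ± 24.3 against 284 ± 38.4 CPM, as was Bcl11b, a T cell identity factor, at 116 ± 13.9 against 62.1 ± 3.14 CPM. Ets1 (1354 ± 135 against 1531 ± 65.7 CPM) and Gata3 (66.3 ± 7.12 against 83 ± 3.38 CPM) were abundant in both and did not pass the test.

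Id proteins, which inhibit E proteins, had their 2 tested genes differ in opposite directions. Id2 was at 491, 443 and 592 CPM in the IEL libraries and 245, 262 and 255 CPM in the IELp libraries (log2 change 1.23 ± 0.096 SE, adjusted p = 9.13e-07 by edgeR), and Id3 at 12.3, 11.5 and 17.8 CPM in the IEL libraries and 750.4, 715 and 747 CPM in the IELp libraries (log2 change -5.49 ± 0.14 SE, adjusted p = 1.75e-10 by edgeR). Per length Id2 was at 653 against 335 TPM and Id3 at 24.2 against 1326 TPM, so Id2 was the higher of the pair in IELs and Id3 in precursors. The E protein gene Tcf3 was lower at 114 ± 3.57 against 299 ± 4.64 CPM.

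Genes set by recent receptor signals were split by family. Of the Nr4a and Egr factors 2 of 9 tested members were higher and 7 lower (median -2.35). Egr1 was at 49.4, 46.3 and 54.3 CPM in the IEL libraries and 303, 309 and 284 CPM in the IELp libraries (log2 change -2.35 ± 0.08 SE, adjusted p = 1.31e-09 by edgeR), Egr2 at 7.75 ± 0.352 against 163 ± 7.43 CPM and Nr4a1 at 69.3 ± 4.43 against 483 ± 37.3 CPM. Nr4a2 was higher at 196 ± 35.6 against 138 ± 6.47 CPM, and so was Nab1, a corepressor of Egr factors, at 324 ± 35.5 against 106 ± 8.26 CPM. The AP-1, Batf, Maf and NFAT factors went the other way, and 13 of 18 tested members were higher and 3 lower. Fos was at 801, 774 and 828 CPM in the IEL libraries and 56.8, 48.9 and 24 CPM in the IELp libraries (log2 change 4.44 ± 0.24 SE, adjusted p = 5.02e-08 by edgeR), Jun at 400.4 ± 23.5 against 47.3 ± 16.4 CPM and Batf at 49.7 ± 6.22 against 22.7 ± 1.15 CPM. Nfil3, a factor of innate lymphoid cells, was higher at 85.1 ± 11.7 against 12.6 ± 2.49 CPM. The heat shock gene Hspa1a, which like Fos is induced when tissue is dissociated, was at 12.8, 12.3 and 34.8 CPM in the IEL libraries and 0.614, 0.235 and 0.147 CPM in the IELp libraries, highest in the third IEL library. Its part in the AP-1 differences was not tested.

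Feedback genes of the ERK pathway differed in both directions. Of the DUSP and Sprouty genes 7 of 19 tested members were higher and 7 lower, near the share over all genes. Dusp4 was at 0.0614, 0.129 and 0 CPM in the IEL libraries and 46.1, 43.5 and 40.8 CPM in the IELp libraries, a ratio of 728 with a 95% counting interval of 249 to 3534. Spry1 was at 0.430, 0.129 and 1.09 CPM in the IEL libraries and 66.5, 66.9 and 68.9 CPM in the IELp libraries (log2 change -6.63 ± 0.29 SE, adjusted p = 9.77e-09 by edgeR), and Dusp2, a nuclear phosphatase for ERK, was lower at 37 ± 1.98 against 306 ± 16.2 CPM. On the higher side log2 fold changes in the list reached 6.34. Among called members with at least 10 CPM and no overlap between groups, Dusp1 had the largest increase. The summed level of the list was 2134 ± 213 against 1001 ± 19.2 CPM. Dusp6, which is specific for ERK, was higher at 126 ± 9.87 against 48.3 ± 3.32 CPM. Regulators of G protein signals did not share a direction either, and 5 of 11 tested members were higher and 5 lower, with a median that changed sign under total-count scaling. Rgs1, which shortens chemokine receptor signals, was at 6492, 6544 and 6205 CPM in the IEL libraries and 17.5, 15.7 and 18 CPM in the IELp libraries (log2 change 8.79 ± 0.081 SE, adjusted p = 3.67e-13 by edgeR). Rgs10 was lower at 4.83 ± 0.899 against 31.5 ± 3.76 CPM and Rgs12 at 8.71 ± 3.36 against 61.9 ± 11.6 CPM.

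Interferon regulatory factors were more often higher, and 7 of 12 tested members were higher and 2 lower. Under total-count scaling 5 were higher and 3 lower, with a median log2 fold change of 0.03. Irf8 was at 237, 236 and 273 CPM in the IEL libraries and 37.3, 40.7 and 37.3 CPM in the IELp libraries (log2 change 2.92 ± 0.086 SE, adjusted p = 4.87e-10 by edgeR), and Irf1 was higher at 480.1 ± 6.66 against 194 ± 26.4 CPM. Irf4 was lower at 2.26 ± 0.788 against 5.26 ± 1.69 CPM, and the count of lower members fell from 2 to 1 without IELp replicate 2 or 3 or without IEL replicate 2.

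Notch pathway genes were more often higher, and 15 of 26 tested members were higher and 7 lower (median 0.57), or 14 and 9 under total-count scaling. Notch receptors are cut after ligand binding and switch on targets through RBPJ. Dtx1, a target and a modulator of Notch, was at 763, 742 and 716 CPM in the IEL libraries and 19.4, 20.7 and 12.4 CPM in the IELp libraries (log2 change 5.62 ± 0.15 SE, adjusted p = 2.66e-10 by edgeR). Heyl, a target from the Hairy family, was at 208, 202 and 243 CPM in the IEL libraries and 14.7, 17.8 and 15.1 CPM in the IELp libraries (log2 change 4.01 ± 0.11 SE, adjusted p = 2.69e-10 by edgeR). Dtx4 was higher at 104 ± 6.31 against 3.08 ± 1.02 CPM, Rbpj at 46.4 ± 2.76 against 20.8 ± 1.66 CPM and Notch1 at 72.7 ± 22.8 against 41.5 ± 4.80 CPM. Hes1, a target prominent in early thymocytes, was lower at 0.246, 0.515 and 1.03 CPM in the IEL libraries and 9.14, 7.82 and 6.19 CPM in the IELp libraries (log2 change -3.42 ± 0.40 SE, adjusted p = 2.16e-05 by edgeR). Lfng, a glycosyltransferase that tunes ligand choice, was also lower at 78.5 ± 9.37 against 183 ± 6.04 CPM.

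The aryl hydrocarbon receptor (AhR) binds dietary and microbial ligands and acts with ARNT at xenobiotic response elements. Of its pathway 8 of 13 genes were tested, and 6 of 8 tested members were higher and 1 lower, or 4 and 1 under total-count scaling. Ahr itself was at 130.3, 134 and 135 CPM in the IEL libraries and 94.3, 79 and 110.0 CPM in the IELp libraries (log2 change 0.73 ± 0.11 SE, adjusted p = 0.000143 by edgeR). Ahrr, its repressor and a known target, was at 59.9, 67.3 and 79.1 CPM in the IEL libraries and 0 in each IELp library, at least 1037-fold higher. Tiparp, another target, was at 198, 195 and 179 CPM in the IEL libraries and 21.3, 18.1 and 19.6 CPM in the IELp libraries (log2 change 3.51 ± 0.091 SE, adjusted p = 1.94e-10 by edgeR). Cyp1b1 had no counts in the 6 libraries, and the textbook target Cyp1a1 had none in IELs. The Ahrr promoter is shown because this gene had no counts in precursors and was present in each IEL library. The 250 bases before its RefSeq start (GRCm38.p6, chr13:74292332-74292581, minus strand, printed 5′ to 3′ on that strand) hold 1 match to TNGCGTG, the core of the xenobiotic response element, in capitals.
Ahrr: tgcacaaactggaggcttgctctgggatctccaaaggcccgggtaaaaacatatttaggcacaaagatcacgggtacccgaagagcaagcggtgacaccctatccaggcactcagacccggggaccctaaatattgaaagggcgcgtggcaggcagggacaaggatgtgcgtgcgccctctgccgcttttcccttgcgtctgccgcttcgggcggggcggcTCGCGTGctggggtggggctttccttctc
The match began 29 bases before the start. On either strand, 4.10% of 32851 promoter windows of that length hold these letters. Among 9 windows from 9 genes of the pathway list, 1 held them, that of Ahrr. The motif was chosen after the values were seen, and a match describes letters, not binding.

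TGF-β pathway members showed no common direction, and 9 of 25 tested members were higher and 9 lower, or 7 and 12 under total-count scaling. Tgfbr2, the receptor chain that binds the ligand first, was higher at 422 ± 51.1 against 201 ± 13.1 CPM. Tgfbr3, a coreceptor, was at 65.2, 72.9 and 38.1 CPM in the IEL libraries and 4.16, 5.00 and 8.10 CPM in the IELp libraries (log2 change 3.59 ± 0.28 SE, adjusted p = 1.06e-06 by edgeR). Smad3, which carries the signal to the nucleus, was at 8.97, 7.53 and 8.53 CPM in the IEL libraries and 142, 134 and 129 CPM in the IELp libraries (log2 change -3.79 ± 0.10 SE, adjusted p = 2.32e-10 by edgeR). Skil, an inhibitor of SMADs, was higher at 186 ± 20.8 against 46.8 ± 4.88 CPM, and Tgfb3 was higher at 127 ± 8.20 against 50.8 ± 3.07 CPM while Tgfb1 was lower at 75.1 ± 1.93 against 129 ± 9.84 CPM.

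Genes of granule formation and release were more often higher. Of the list 17 of 28 tested members were higher and 3 lower, or 13 and 6 under total-count scaling. Sytl3, a synaptotagmin-like tether of granules, was at 191, 192 and 189 CPM in the IEL libraries and 16.5, 17.8 and 17.2 CPM in the IELp libraries (log2 change 3.70 ± 0.078 SE, adjusted p = 5.00e-11 by edgeR), and Sytl2 was higher at 208 ± 27.7 against 30.3 ± 1.90 CPM. Stx11, a syntaxin needed for granule fusion, was at 71.6, 64.5 and 71.3 CPM in the IEL libraries and 6.48, 9.29 and 10.6 CPM in the IELp libraries (log2 change 3.21 ± 0.16 SE, adjusted p = 2.21e-08 by edgeR). Serpinb9, which inhibits granzyme B inside the cell that makes it, was at 147, 144 and 135 CPM in the IEL libraries and 11.9, 15.2 and 12.3 CPM in the IELp libraries (log2 change 3.66 ± 0.11 SE, adjusted p = 4.75e-10 by edgeR). Nkg7 (1976 ± 63.6 against 341 ± 30.9 CPM) and the cathepsin gene Ctsw (1411 ± 38.8 against 586 ± 27.3 CPM) were higher and already abundant in precursors. The release factors Rab27a (49.2 ± 7.22 against 48.2 ± 4.61 CPM) and Unc13d (242 ± 10.1 against 261 ± 1.92 CPM) did not pass the test. Gzmk, a granzyme of memory cells, was at 123, 125 and 108 CPM in the IEL libraries and 0 in each IELp library, at least 1788-fold higher.

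Enzymes and receptors for extracellular nucleotides were split, and 6 of 15 tested members were higher and 4 lower, or 6 and 6 under total-count scaling, with a median that changed sign. Cd38, which consumes NAD, was at 410.0, 400.2 and 369 CPM in the IEL libraries and 24.2, 28.8 and 28 CPM in the IELp libraries (log2 change 4.09 ± 0.09 SE, adjusted p = 6.36e-11 by edgeR). Entpd1, or CD39, which removes phosphates from ATP, was higher at 124 ± 22.4 against 37.6 ± 3.97 CPM, and Nt5e, or CD73, which makes adenosine from AMP, was higher at 426 ± 14.9 against 283 ± 11.1 CPM. The ATP-gated channel P2rx7 was higher at 355 ± 41.9 against 157 ± 20.4 CPM. Dpp4, or CD26, a peptidase that binds adenosine deaminase, was lower at 42.8, 51.9 and 44 CPM in the IEL libraries and 241, 254 and 220.3 CPM in the IELp libraries (log2 change -2.14 ± 0.095 SE, adjusted p = 1.05e-08 by edgeR).

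Families of lymphocyte GTPases and membrane proteins were also compared. Of 8 GIMAP genes, whose products support lymphocyte survival, 7 were higher and Gimap5 did not pass the test, although 1 was lower under total-count scaling. Gimap7 was at 534, 536 and 552 CPM in the IEL libraries and 63.3, 63.9 and 42.6 CPM in the IELp libraries (log2 change 3.48 ± 0.13 SE, adjusted p = 3.37e-09 by edgeR), Gimap4 at 1771 ± 40.0 against 275 ± 16.6 CPM and Gimap3 at 2026 ± 108 against 563 ± 54.4 CPM. Of Schlafen genes 3 of 7 tested members were higher and 4 lower, with Slfn5 at 0.922, 0.322 and 0.489 CPM in the IEL libraries and 63.5, 63.5 and 60.1 CPM in the IELp libraries (log2 change -6.51 ± 0.21 SE, adjusted p = 9.83e-10 by edgeR) and Slfn2, which is linked to T cell quiescence, higher at 253 ± 11.6 against 148 ± 9.16 CPM. Of MS4A and Ly6 genes 1 of 10 tested members were higher and 6 lower. Ms4a4b was lower at 15.5 ± 2.34 against 167 ± 6.91 CPM, and the single higher member was Ly6e at 669.8 ± 43.2 against 341 ± 12.3 CPM. Schlafen and MS4A genes have close copies, which can share reads.

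MHC class I genes and peptide loading were more often higher, and 19 of 26 tested members were higher and 4 lower, or 14 and 5 under total-count scaling. H2-D1 was at 4335, 4292 and 5145 CPM in the IEL libraries and 2765, 2729.6 and 2598 CPM in the IELp libraries (log2 change 1.00 ± 0.071 SE, adjusted p = 4.67e-07 by edgeR), B2m at 2155 ± 226 against 1521 ± 168 CPM and the loading factor Tapbp at 1067 ± 44.9 against 575 ± 11.4 CPM. H2-T23, which encodes the nonclassical molecule Qa-1, was higher at 535 ± 4.65 against 273 ± 21.9 CPM, and the near-identical H2-Q6 and H2-Q7 were higher at 736 ± 55.2 against 287 ± 63 CPM and 564 ± 37.1 against 192 ± 38.8 CPM. H2-K1 was left out because H-2Kb was a gate. GTPases induced by interferon-γ were likewise more often higher, and 11 of 16 tested members were higher and 2 lower, with Gbp2 at 117, 116 and 125 CPM in the IEL libraries and 46.7, 42.1 and 41.7 CPM in the IELp libraries (log2 change 1.69 ± 0.082 SE, adjusted p = 2.07e-08 by edgeR) and Irgm2 at 49.9 ± 8.39 against 20.7 ± 3.74 CPM. The 2 lower members became 1 without IELp replicate 1 or 2 and without IEL replicate 1 or 2. Genes of the type I interferon response showed no common direction. There 15 of 38 tested members were higher and 15 lower, and 12 were higher and 18 lower under total-count scaling, which also turned the sign of the median. Stat2 was higher at 142 ± 2.55 against 68.6 ± 8.41 CPM and Ddx58, the RNA sensor RIG-I, at 278 ± 4.46 against 143 ± 9.80 CPM. Usp18, which cuts the modifier ISG15 from proteins, was lower at 3.44, 3.47 and 4.07 CPM in the IEL libraries and 31.7, 30.3 and 21.7 CPM in the IELp libraries (log2 change -2.69 ± 0.18 SE, adjusted p = 3.37e-07 by edgeR), and Ifit1 was lower at 8.80 ± 0.973 against 46.5 ± 11.1 CPM.

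Most sterol synthesis genes were higher. Of the cholesterol and fatty acid list 30 of 39 tested members were higher and 5 lower (median log2 fold change 1.46), with 20 higher beyond 2-fold, and 27 higher and 5 lower under total-count scaling. SREBP-2, encoded by Srebf2, switches these genes on when membrane sterol is low. Srebf2 was at 501, 549.6 and 463 CPM in the IEL libraries and 179.9, 173 and 142 CPM in the IELp libraries (log2 change 1.84 ± 0.098 SE, adjusted p = 4.26e-08 by edgeR). Hmgcs1, an early enzyme of the pathway, was at 300.2, 294 and 347 CPM in the IEL libraries and 99.6, 98.4 and 106 CPM in the IELp libraries (log2 change 1.86 ± 0.08 SE, adjusted p = 7.42e-09 by edgeR). Sqle, squalene epoxidase, was at 161, 158 and 228 CPM in the IEL libraries and 8.87, 14.9 and 11.6 CPM in the IELp libraries (log2 change 4.18 ± 0.20 SE, adjusted p = 1.70e-08 by edgeR). Lss was higher at 137 ± 5.90 against 19.1 ± 1.47 CPM, Cyp51 at 234 ± 33.1 against 44.7 ± 4.83 CPM, Msmo1 at 159 ± 26.9 against 24.9 ± 0.494 CPM and Idi1 at 14.2 ± 2.31 against 1.96 ± 0.0440 CPM. The sterol exporters went the other way, with Abca1 at 0, 0.257 and 0.163 CPM in the IEL libraries and 98.1, 76.2 and 64.2 CPM in the IELp libraries (log2 change -8.85 ± 0.34 SE, adjusted p = 3.52e-09 by edgeR) and Abcg1 at 30.2 ± 5.62 against 87.6 ± 3.29 CPM. Scd2, a fatty acid desaturase, was lower at 113 ± 10.1 against 487 ± 17 CPM. The third IEL library was the highest for Sqle.

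The Hmgcs1 promoter is shown as the 1 window among the 38 matched from the sterol list that held the sterol regulatory element. The 250 bases before the RefSeq start (GRCm38.p6, chr13:119690101-119690350, plus strand) hold TCACNCCAC, in capitals.
Hmgcs1: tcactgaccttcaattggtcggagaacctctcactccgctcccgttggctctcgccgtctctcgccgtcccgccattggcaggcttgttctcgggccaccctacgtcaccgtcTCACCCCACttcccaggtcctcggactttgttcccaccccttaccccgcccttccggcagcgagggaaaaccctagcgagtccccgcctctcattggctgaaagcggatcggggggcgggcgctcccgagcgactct
It began 137 bases before the start. Of all promoter windows 1.05% hold these letters on either strand, against 1 of 38 windows from 29 genes of the list. The letters are 1 form of a variable element, and gene and motif were chosen after the values were seen.

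Other fuel pathways changed less uniformly. Of genes for fatty acid uptake and oxidation 14 of 31 tested members were higher and 10 lower, a balance that turned to 9 higher and 13 lower under total-count scaling. Acsl1, an acyl-CoA synthetase, was higher at 19.5 ± 2.77 against 4.56 ± 0.844 CPM, and its relative Acsl3 was lower at 0.860, 1.99 and 2.2 CPM in the IEL libraries and 30.6, 28.8 and 31.8 CPM in the IELp libraries (log2 change -3.94 ± 0.24 SE, adjusted p = 1.34e-07 by edgeR). Slc27a2, a fatty acid transporter, was lower at 0.598 ± 1.03 against 30.8 ± 0.732 CPM, and the carnitine shuttle enzyme Crat was higher at 43.3 ± 1.66 against 24.2 ± 2.73 CPM. Of glycolysis genes 7 of 31 tested members were higher and 17 lower (median -0.55). Hk1 (409 ± 11.4 against 218 ± 9.32 CPM), Pfkp (744 ± 38.1 against 389 ± 4.80 CPM) and the glucose transporter Slc2a3 (126 ± 13.3 against 75 ± 9.91 CPM) were higher. Eno3, an enolase, was at 7.31, 7.79 and 5.49 CPM in the IEL libraries and 344, 342 and 339 CPM in the IELp libraries (log2 change -5.41 ± 0.12 SE, adjusted p = 5.08e-11 by edgeR), and Ldhb was lower at 10.1 ± 0.729 against 112 ± 2.28 CPM and the lactate transporter Slc16a1 at 22.8 ± 4.42 against 120.1 ± 10.5 CPM. Of amino acid transporters 8 of 22 tested members were higher and 8 lower, or 5 and 10 under total-count scaling. Slc7a5, a transporter of large neutral amino acids, was lower at 10.6, 9.72 and 8.58 CPM in the IEL libraries and 70.0, 77.3 and 77.6 CPM in the IELp libraries (log2 change -2.73 ± 0.11 SE, adjusted p = 6.79e-09 by edgeR), while its partner chain Slc3a2 was higher at 290.0 ± 19.6 against 184 ± 4.47 CPM.

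Redox genes showed a few large differences. Over the list 16 of 33 tested members were higher and 10 lower, which became 9 higher and 13 lower under total-count scaling. Srxn1, which repairs oxidized peroxiredoxins, was at 36.7, 46.2 and 37.4 CPM in the IEL libraries and 0.136, 0.176 and 0 CPM in the IELp libraries (log2 change 8.63 ± 0.31 SE, adjusted p = 1.83e-09 by edgeR). Mt1, a metallothionein that binds zinc, was at 12.4, 14 and 10.4 CPM in the IEL libraries and 0.0682, 0.118 and 0 CPM in the IELp libraries, a ratio of 183 with a 95% counting interval of 62.4 to 891. The peroxiredoxin Prdx4 of the endoplasmic reticulum was at 0.123, 0.257 and 0 CPM in the IEL libraries and 24.4, 24.2 and 27 CPM in the IELp libraries (log2 change -7.40 ± 0.36 SE, adjusted p = 2.09e-08 by edgeR). Gpx1, a glutathione peroxidase, was lower at 74.2 ± 4.56 against 275 ± 20.2 CPM, and Hmox1, heme oxygenase 1, was higher at 9.24 ± 1.33 against 1.98 ± 0.194 CPM.

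**Figure D4:**
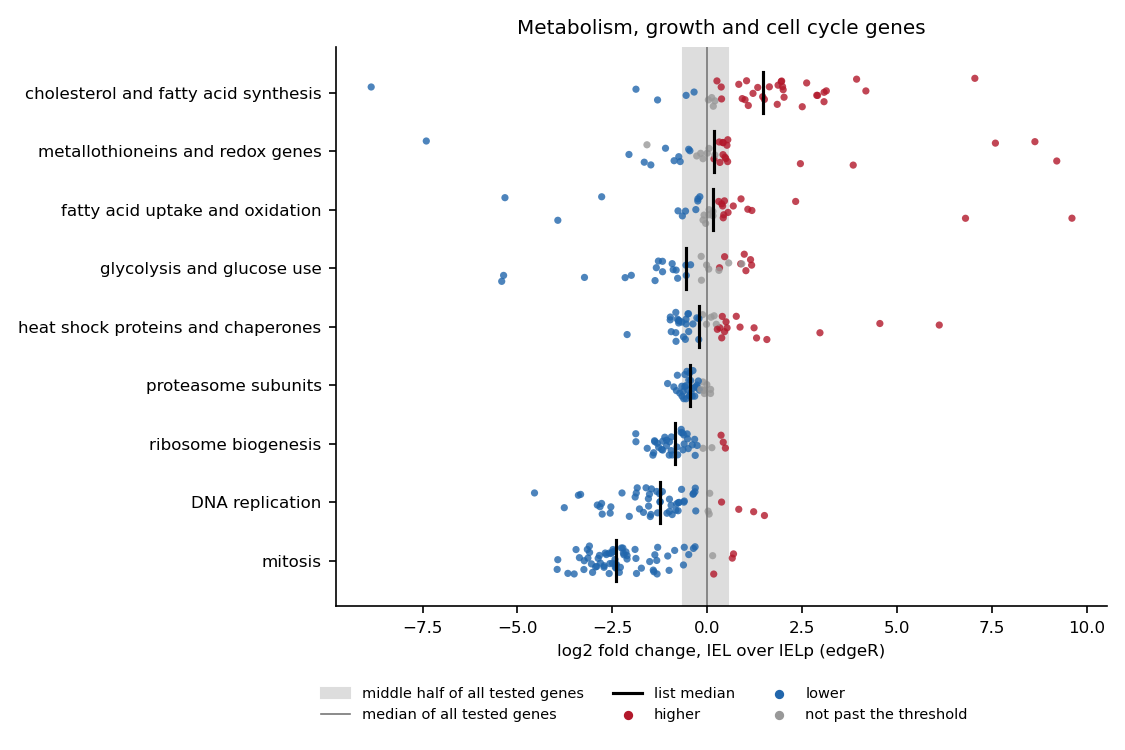
Each point is a tested gene of the list named on the left, at its log2 fold change of IELs over IELp, in red if higher, blue if lower and grey if the test was not passed. Black bars are list medians, and the grey band spans the quartiles of all tested genes, -0.63 to 0.54. The sterol list has its median at 1.46, and the replication and mitosis lists at -1.25 and -2.41.

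Most cell cycle genes were lower. Of DNA replication genes 4 of 55 tested members were higher and 48 lower (median -1.25), and of mitosis genes 3 of 68 tested members were higher and 64 lower (median -2.41), 56 of these lower beyond 2-fold. E2f2, an activator of S phase genes, was at 1.97, 1.74 and 1.85 CPM in the IEL libraries and 48.7, 53.8 and 50.7 CPM in the IELp libraries (log2 change -4.55 ± 0.14 SE, adjusted p = 5.81e-10 by edgeR). Cdc6, which loads the replicative helicase, was lower at 3.73 ± 0.678 against 46.1 ± 4.65 CPM, and Mcm6, a subunit of that helicase, at 307 ± 11.9 against 1156 ± 36.7 CPM. Higher replication genes were Rfc2 (592 ± 11.1 against 244 ± 2.60 CPM), Rpa1 (539 ± 49 against 271 ± 5.88 CPM) and Rpa2 (151 ± 10.1 against 99.7 ± 3.66 CPM), which also act in DNA repair, and Orc2 (68.2 ± 8.06 against 61.6 ± 5.94 CPM). Cdc25b, the phosphatase that activates CDK1, was at 24.1, 24.8 and 13 CPM in the IEL libraries and 312, 297 and 312 CPM in the IELp libraries (log2 change -3.67 ± 0.19 SE, adjusted p = 3.62e-08 by edgeR). Ube2c, the ubiquitin-conjugating enzyme of the anaphase-promoting complex, was at 2.52, 2.32 and 2.88 CPM in the IEL libraries and 47.3, 44 and 48.3 CPM in the IELp libraries (log2 change -3.94 ± 0.14 SE, adjusted p = 1.74e-09 by edgeR). Espl1, or separase, which cuts cohesin, was at 2.27, 3.47 and 2.12 CPM in the IEL libraries and 36.4, 37.6 and 30.2 CPM in the IELp libraries (log2 change -3.51 ± 0.20 SE, adjusted p = 6.17e-08 by edgeR). The higher mitosis genes were Pttg1, or securin, its inhibitor, at 66.5 ± 3.78 against 49.4 ± 5.36 CPM, Ube2s at 7.01 ± 1.14 against 5.09 ± 0.806 CPM and Racgap1 at 130.4 ± 6.58 against 136 ± 1.69 CPM, which is higher only after TMM scaling (log2 fold change 0.17). Their count fell from 3 to 1 without IELp replicate 2 or 3, without IEL replicate 1 and under total-count scaling.

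Promoters of mitosis genes are known for CCAAT boxes near an element called the cell cycle homology region, with the letters TTTGAA. Of 67 RefSeq promoter windows of 61 mitosis genes, 37.3% held the homology region and 70.1% a CCAAT box on either strand in the 250 bases before the start. Over all 32851 windows these shares were 16% and 33.8%. In windows of replication genes they were 16.4% and 56.4%. In windows of the cholesterol and fatty acid list, whose genes were mostly higher, they were 7.89% and 60.5%. A raised share of CCAAT boxes was thus not particular to the lowered lists. The promoters of Ube2c (chr2:164769679-164769928, plus strand) and Espl1 (chr15:102296043-102296292, plus strand, both GRCm38.p6) are shown because both genes are described above and carry both motifs. Capitals mark both motifs and their reverse complements.
Ube2c: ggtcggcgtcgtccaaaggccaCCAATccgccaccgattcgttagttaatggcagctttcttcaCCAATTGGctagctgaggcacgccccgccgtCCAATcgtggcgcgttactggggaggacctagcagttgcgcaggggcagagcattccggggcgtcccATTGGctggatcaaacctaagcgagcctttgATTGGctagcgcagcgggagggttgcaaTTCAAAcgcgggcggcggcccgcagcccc
Espl1: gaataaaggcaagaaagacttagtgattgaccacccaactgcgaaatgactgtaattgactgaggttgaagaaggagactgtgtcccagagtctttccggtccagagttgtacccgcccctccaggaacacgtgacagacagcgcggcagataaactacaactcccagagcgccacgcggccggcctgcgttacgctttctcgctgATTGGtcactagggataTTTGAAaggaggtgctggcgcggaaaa
The homology region, read on the opposite strand in Ube2c as TTCAAA, begins 29 bases before the start in Ube2c and 27 in Espl1. The Ube2c window holds 6 CCAAT matches, 2 of them overlapping on opposite strands in CCAATTGG, and the Espl1 window holds 1. These are matches of letters and show no binding.

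Growth and protein turnover genes were lower by smaller amounts. Of ribosome biogenesis genes 3 of 40 tested members were higher and 35 lower (median -0.86). Myc, which drives these genes, was at 79.9, 71.2 and 108 CPM in the IEL libraries and 266, 259 and 268 CPM in the IELp libraries (log2 change -1.38 ± 0.13 SE, adjusted p = 3.32e-06 by edgeR). Nop58, a core protein of small nucleolar particles, was lower at 66.2 ± 11.1 against 209.9 ± 11.7 CPM, and Npm1, or nucleophosmin, at 63.2 ± 2.45 against 197 ± 10.2 CPM. Of the constitutive proteasome subunits and activators 0 of 38 tested members were higher and 30 lower (median -0.45), with none beyond 2-fold. Psma6, the member with the largest difference, was at 121, 109.9 and 114 CPM in the IEL libraries and 273, 287 and 274 CPM in the IELp libraries (log2 change -1.05 ± 0.066 SE, adjusted p = 1.65e-07 by edgeR). Of chaperones 15 of 43 tested members were higher and 23 lower, and under total-count scaling 9 were higher. Subunits of the CCT folding ring were lower, as with Cct5 at 261, 255 and 289.6 CPM in the IEL libraries and 606, 625 and 629.5 CPM in the IELp libraries (log2 change -0.98 ± 0.065 SE, adjusted p = 2.61e-07 by edgeR) and Cct3 at 254 ± 26.6 against 576 ± 5.24 CPM. Hspa5, the main chaperone of the endoplasmic reticulum, was higher at 1509.9 ± 334 against 974 ± 56.5 CPM, and the stress-inducible Hspa1b, a near-identical copy of Hspa1a, at 40.8 ± 25.1 against 2.03 ± 0.424 CPM.

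Chromatin enzymes were mostly lower, and 6 of 45 tested members were higher and 28 lower (median -0.46). Ezh2, the methyltransferase of Polycomb complex 2, was at 32.5, 36.4 and 34.5 CPM in the IEL libraries and 123, 129 and 143 CPM in the IELp libraries (log2 change -1.70 ± 0.09 SE, adjusted p = 4.06e-08 by edgeR). Its alternative Ezh1, which prevails in resting cells, was at 314, 329.8 and 295 CPM in the IEL libraries and 115, 119 and 113 CPM in the IELp libraries (log2 change 1.66 ± 0.069 SE, adjusted p = 5.97e-09 by edgeR). Per length, Ezh2 was at 16.2 against 63.5 TPM and Ezh1 at 132 against 50.1 TPM, so Ezh1 was above Ezh2 in IELs. Uhrf1, which guides the maintenance DNA methyltransferase, was lower at 18 ± 2.09 against 146 ± 4.53 CPM, and Dnmt1 itself by less, at 245 ± 20.2 against 386 ± 29.3 CPM. Hdac9 was at 0.553, 0.515 and 1.79 CPM in the IEL libraries and 42.4, 46.2 and 45.4 CPM in the IELp libraries (log2 change -5.26 ± 0.29 SE, adjusted p = 6.35e-08 by edgeR). Lmna and Lmnb1, of the nuclear lamina, were lower at 1.26 ± 0.243 against 21.4 ± 4.90 CPM and 24.4 ± 2.28 against 110.2 ± 6.33 CPM, and the methyltransferase gene Ehmt2 was higher at 75.2 ± 9.32 against 18.9 ± 2.29 CPM.

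Survival genes of the BCL2 family did not share a direction. 8 of 20 tested members were higher and 5 lower, which turned to 5 higher and 8 lower under total-count scaling. Bcl2a1d, an antiapoptotic gene with near-identical copies, was at 34.8, 33.2 and 35 CPM in the IEL libraries and 1.57, 2.53 and 1.69 CPM in the IELp libraries (log2 change 4.36 ± 0.18 SE, adjusted p = 5.08e-09 by edgeR). Bcl2l1, or BCL-XL, was higher at 38.8 ± 9.53 against 24.2 ± 2.35 CPM. The proapoptotic genes went both ways, with Pmaip1, or NOXA, higher at 38.3 ± 7.21 against 4.55 ± 0.883 CPM and Bbc3, or PUMA, lower at 5.15 ± 0.576 against 20.6 ± 3.96 CPM. Bcl2l11, or BIM, a main killer of autoreactive thymocytes, was at 93.5 ± 11.3 against 119.9 ± 15 CPM and did not pass the test (edgeR adjusted p = 0.336), nor did Mcl1 at 405 ± 45.1 against 439 ± 18.3 CPM.

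**Figure D5:**
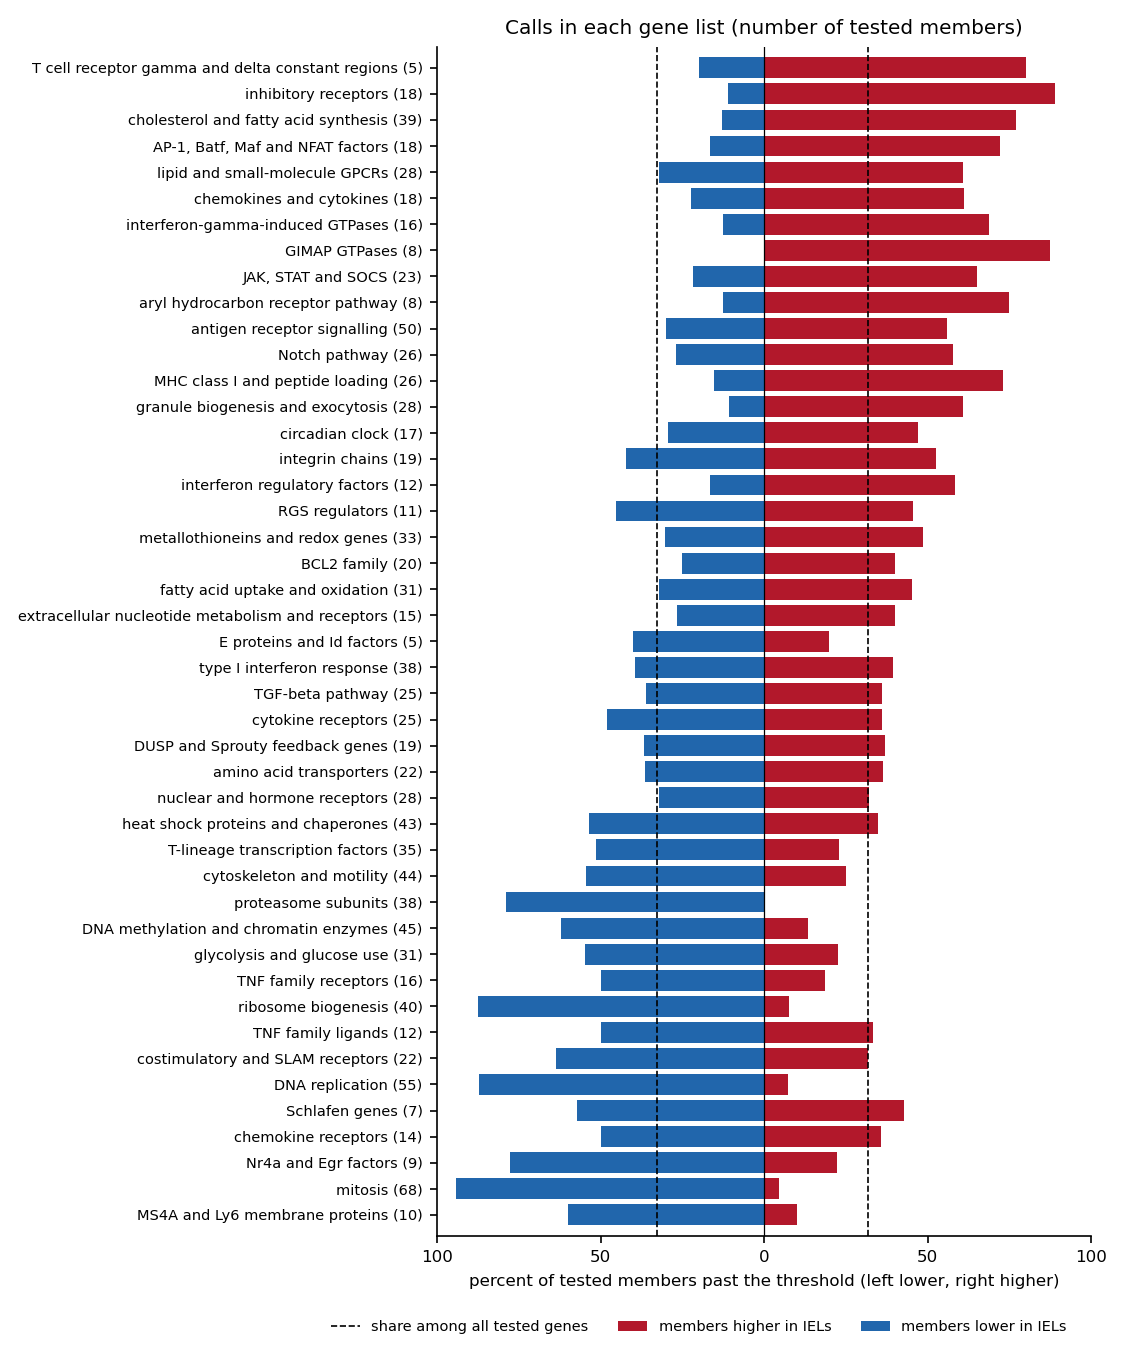
Bars give the percent of tested members of each gene list that were higher (right, red) or lower (left, blue) in IELs, with the number tested in parentheses and lists in order of their median log2 fold change. Dashed lines mark the shares over all tested genes, 31.9% higher and 32.9% lower. The list of inhibitory receptors, which was drawn by family and includes Cd200r4, reaches 16 of 18 higher, and mitosis genes 64 of 68 lower.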

How the data were processed

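RNA sequencing of 6 control libraries, 3 of CD8αα IELs and 3 of IELp, was analysed. Per the labels' protocols, RNA from sorted cells was isolated with RNeasy Plus Micro columns, amplified with SMARTer Ultra Low Input reagents, made into libraries with Nextera XT and read as pairs of 76 bp. The submitters' processing notes name bcl2fastq 2.17, Trimmomatic, STAR, HTSeq, DESeq2 and build mm10. For annotation and strand use, details were not given in the sources used here.

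The authors deposited raw counts for 48663 gene symbols, which were used as they stand, with 5 summary rows left out. The authors also deposited values named FPM, which equal CPM of the gene counts to within 8.1e-05 and were used in alternatives. Symbols that read as dates (27) were not named, and 95.6% of symbols matched GENCODE mouse release M21, whose exon lengths gave TPM. Reads outside genes were mostly without a feature (41.5% to 45.5%) or not unique.

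Genes were filtered with filterByExpr, scaled with TMM factors (0.92 in IELs and 1.08 in IELp) and tested 2-sided on the 6 libraries by glmQLFTest (edgeR 4.0.16, R 4.3.3). P-values were adjusted by Benjamini-Hochberg over all tested genes at 0.05, and changes beyond 2-fold were tested with glmTreat. SEs are the log2 fold change over the square root of F. CPM carry no TMM factors. Folds against a group without counts take 3 counts in that whole group as a floor, and with 1 to 3 counts a ratio of CPM is given with an exact conditional 95% interval. Intervals and floors cover counting error only. On simulated counts of 14619 genes the fit recovered 46.3%, 80.6% and 96.9% of genes changed 1.5-, 2- and 4-fold, with 2.63% of calls false. Only 67, 67 and 65 genes were changed at these sizes, in both directions, far fewer than were called in the data. The simulation did not test the choice of scaling, so 2.63% is not the error rate of the real calls.

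The comparison, its 52 gene lists and its rules were chosen with earlier results of these data known, and lists were given no test. The rule named, per list, up to 5 called genes with the largest and 5 with the smallest fold change and the 2 most abundant, if groups did not overlap and the higher one had at least 10 CPM, and over all genes 20 in each direction. Genes of the sort gates and Zbtb7a were added. The text names a part of these. Other list members were chosen after their values were seen: Batf, Bcl2l11, Cd101, Cish, Cyp51, Dnmt1, Ets1, Ezh2, Gata3, Gpr55, Hcst, Hes1, Hmgcs1, Hmox1, Il2rg, Irf4, Itga4, Itgb2, Lag3, Mcl1, Msmo1, Myc, Notch1, Orc2, Rab27a, Racgap1, Rbpj, Syk, Tigit, Ube2s, Uhrf1, Unc13d, Xcl1 and Zap70.

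Alternatives were median-of-ratios factors, total gene counts, DESeq2 1.42.0, no filter, a replicate block, all 12 libraries in 1 fit, limma 3.58.1 on log2(FPM + 1) or log2(FPM + 0.1), and leaving out each library. Replicates differed by more than sampling noise, so none was merged. Promoters are RefSeq windows on GRCm38.p6, the patch release of the same assembly as mm10, and were available for 61 mitosis genes. Some members of the gene lists are not reported here.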

Additional observations from a re-analysis of the deposited data

How the results depend on the processing

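Leaving out each library in turn gave 4395 to 4923 genes higher and 4500 to 5105 lower, and 1447 to 1564 higher and 1665 to 1936 lower beyond 2-fold. The highest count of each range came without IEL replicate 3, the library with the most epithelial transcripts. DESeq2 gave 4785 higher and 4737 lower, median-of-ratios factors 4784 and 4846, no filter 5249 and 5134, and 1 fit of all 12 libraries 5091 and 5143. Limma on log2(FPM + 1) gave 911 genes higher beyond 2-fold, against 1512, with 1100 for a pseudocount of 0.1 and 1252 for edgeR with total gene counts. It changed scaling, test and pseudocount together. Of 6272 values of 448 named genes under alternatives, 6206 kept direction and call, 58 lost the call, 6 gained it and 2 changed sign. Both of these were Il2rb, at log2 fold changes of 0.0039 with all 12 libraries and 0.0186 without IEL replicate 2, against -0.02, with a range of -0.0369 to 0.0186 over single left-out libraries and no value past the threshold. Of 1456 list counts 41 moved by over 1.5 times.

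IEL and IELp replicates share numbers, and the replicate block gave 4721 genes higher and 4845 lower, with 1502 and 1785 beyond 2-fold. Deviations of same-numbered libraries from their group means correlated at 0.0498, 0.0104 and 0.214 over 9798 genes, and IEL replicate 2 correlated best with IELp replicate 1 (0.213), so the numbers were not taken as pairs.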

Other observations

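Among genes of the circadian clock, 8 of 17 tested were higher in IELs and 5 lower, with a median log2 fold change of 0.38. Bhlhe40, a repressor of clock genes that also acts in T cells, was at 241, 235 and 246 CPM in the IEL libraries and 6.28, 6.06 and 6.48 CPM in the IELp libraries (log2 change 5.49 ± 0.086 SE, adjusted p = 7.25e-12 by edgeR). Per3, of the period family, was at 12.6 ± 3.92 against 3.05 ± 0.785 CPM, and Clock, which gives the activating complex its name, at 23.2 ± 1.47 against 8.80 ± 2.93 CPM. Arntl, the partner of Clock in that complex, was lower at 32.2 ± 0.272 against 81.7 ± 7.61 CPM, as was the repressor Cry1 at 23.5 ± 3.15 against 68.1 ± 4.64 CPM. Under total-count scaling 7 of these genes were higher and 6 lower.

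Of 44 tested genes of the cytoskeleton and of motility, 11 were higher in IELs and 24 lower, with a median of -0.42, or 9 and 29 under total-count scaling. Myo1f, a class I myosin of blood cells, was at 848, 866 and 879.9 CPM in the IEL libraries and 106, 125 and 99.3 CPM in the IELp libraries (log2 change 3.20 ± 0.088 SE, adjusted p = 2.90e-10 by edgeR). Stmn1, which destabilises microtubules and is abundant in dividing cells, was at 6.06 ± 0.129 against 174 ± 14.4 CPM (log2 change -4.61 ± 0.10 SE, adjusted p = 8.17e-11 by edgeR). Tubb5, a beta-tubulin, was at 62 ± 4.95 against 597 ± 3.33 CPM, and Actb, the cytoplasmic actin often used as a reference gene, at 2690.1 ± 292 against 5509 ± 271 CPM, both lower in IELs.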
